A study of Bos taurus with 8 samples.

Results

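The 34 genes described here encode the enzymes that make cholesterol and fatty acids and the proteins that control their transcription, in bovine embryonic stem cells (bESCs) moved from a feeder layer to feeder-free culture. They were chosen by name for their role in these pathways, with earlier results of these data known. All 34 were found among the 32637 genes with values. RNA sequencing covered 4 bESC lines (A, C, D and E), derived from early or full blastocysts and recorded as XX, each sampled in both conditions, so that each condition had 4 libraries. In the first condition the cells grew in 5% O2 on mouse embryonic fibroblast (MEF) feeders, after 5 passages of adaptation to low oxygen, and are recorded at passages 15 to 17. In the second the same lines had been carried on to vitronectin without feeders, also in 5% O2, and are recorded at passages 20 to 22. All 8 titles carry the same medium name (NBFRA), whereas the methods of the study describe Activin A as a supplement for feeder-free culture, so that feeder removal, vitronectin, passage number and possibly Activin A changed together and cannot be told apart. Per the methods, reads of a MEF sample were also removed from the counts of cells on MEF only. The methods mention sequencing batches and no batch correction. The sample labels used here name no batch, so whether batch differed between the conditions is not known. Each line is an independent line represented by 1 culture per condition.

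Cholesterol is built from acetyl-CoA through mevalonate, isoprenoid units, squalene and lanosterol, and several of the later reactions consume molecular oxygen. Transcription of these enzymes is driven by the sterol regulatory element-binding proteins (SREBPs), which are held in the endoplasmic reticulum by SCAP and INSIG proteins while sterol is plentiful and are released and cleaved when it falls. SREBF2 is mostly linked to sterol genes and SREBF1 to fatty acid genes, and dividing stem cells use both products for membranes.

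Total counts ranged from 44268717 to 54296425 on MEF and from 49671478 to 102351560 feeder-free, where line D was the most deeply sequenced. The 34 genes held 0.745% to 1.02% of the counts of a library, and the lowest count of any of them in any library was 138. Levels are given as TMM-scaled CPM, the count of a gene relative to the scaled total of its library, which serve to compare a gene between libraries but not 1 gene with another. Markers of pluripotent cells were high throughout, with *POU5F1* at 1725 CPM or more in each of the 8 libraries, apart from *DPPA4*, which was near 0. The trophoblast factor *CDX2*, the neural factor *NEUROD1* and the adipocyte gene *FABP4* had 0 counts in all 8 libraries. Other markers of these cell types were detected. The adipocyte gene *LPL* was at 11.7 to 23.5 CPM and higher without feeders in 4 of 4 lines (edgeR adjusted P-value 0.0763 with line as a term). The trophoblast factor *GATA3* reached 3.16 CPM in feeder-free line C, and the neural factor *SOX1* reached 0.672 CPM in line A on MEF. Of the 10 pluripotency markers, 7 had a log2 fold change below 0 (median -0.29), 4 had an edgeR adjusted P-value under 0.05 with line as a term, all lower without feeders (*SOX2*, *LIN28B*, *SALL4* and *OTX2*), and 1 of them, *OTX2*, also passed the fold change threshold (380 to 245 CPM). Among these, *SALL4* had an edgeR adjusted P-value of 0.0426 with condition alone, at a log2 fold change of -0.58. With line as a term, 1279 of all 15744 tested genes were lower at an edgeR adjusted P-value under 0.05. Of all tested genes, 4.53% also passed the fold change threshold in that direction. Of 3 tested trophoblast markers, *KRT7* was called higher with line as a term (24.3 to 68.4 CPM), beside 5.52% of all tested genes. Hypoblast markers summed to 3.33 to 14.2 CPM per library. Fibroblast markers summed to 261 to 1303 CPM per library, although several of them were at or near 0. The part of these cell type markers in the lipid gene values was not tested. As these are bulk samples, fewer cells of a type and less RNA per cell cannot be told apart.

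The comparison asked whether these lipid genes differed between feeder-free culture and culture on MEF in low oxygen. With line as a term, 3 of 7 mevalonate genes (42.9%) and 4 of 11 sterol genes (36.4%) were called higher in feeder-free cells. Over all tested genes, 5.52% were called higher in that fit. *LSS*, *SC5D* and *FDPS* had the largest fold changes, whereas *FASN*, *SREBF2* and *SCAP* were lower in every line without passing the test. With culture condition alone in the model, edgeR's quasi-likelihood test, at an adjusted P-value below 0.05 together with a 1.5-fold change or more, called 0 of the 34 genes higher and 0 lower, beside 0.724% of all 15744 tested genes called higher and 1.00% called lower. At an unadjusted P-value under 0.05, 11 of the 34 (32.4%) were higher and 0 lower, beside 10.2% and 11.4% of all tested genes. DESeq2 called 8 of the 34 higher and 0 lower on the same model, edgeR's likelihood ratio test 5 and 0, and limma-voom 0 and 0. These tests also differed over all tested genes. In both directions together, DESeq2 called 1211 and the likelihood ratio test 837, against 272 with the quasi-likelihood test.

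The same 4 lines were grown in both conditions, and the line letter therefore pairs the libraries. With line as a term in edgeR's quasi-likelihood test, 8 of the 34 genes (23.5%) were called higher in feeder-free cells and 0 lower, beside 5.52% of all tested genes called higher and 4.53% called lower. The 8 genes were *ACAT2*, *IDI1* and *FDPS* of the mevalonate steps, *LSS*, *NSDHL*, *EBP* and *SC5D* of the sterol steps, and the regulator *SREBF1*. Of the 18 mevalonate and sterol genes combined, 15 had a log2 fold change above 0 and 7 (38.9%) were called. The same 8 were those in which all 4 feeder-free libraries lay above all 4 MEF libraries, a separation seen in 6.21% of all tested genes. None of the 34 had all 4 feeder-free libraries below all 4 MEF libraries, which 8.36% of all tested genes did. The log2 fold changes of the 34 ranged from -0.29 to 1.05 with a median of 0.23, beside a median of 0.01 over all tested genes.

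**Figure D1:**
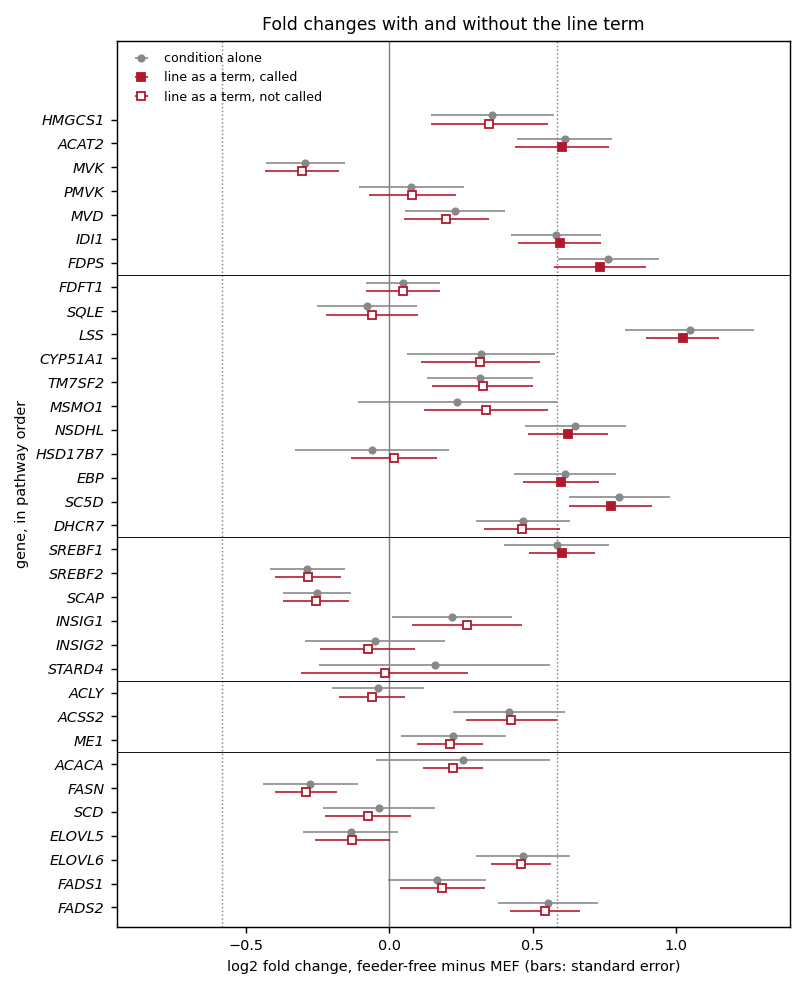
Log2 fold change of each of the 34 genes, feeder-free minus MEF, from edgeR with condition alone (grey circles) and with line as a term (red squares, filled where called); bars are standard errors, dotted lines mark a fold change of 1.5 in either direction, and horizontal lines divide the mevalonate, sterol, regulator, precursor and fatty acid genes. The 8 filled squares all lie to the right of 0, with *LSS* farthest, and the line term shortens the bar of *LSS* from 0.23 to 0.13.

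The mevalonate steps, which turn acetyl-CoA into farnesyl diphosphate, had 3 of 7 genes (42.9%) called higher with line as a term and 0 lower. Of all tested genes, 5.52% were called higher and 4.53% lower. The median log2 fold change of the 7 genes was 0.36. *FDPS*, the synthase that makes farnesyl diphosphate (chromosome 3, 15311071 to 15320244 on ARS-UCD2.0, the build used for all positions), had CPM values of 120, 111, 104 and 128 on MEF and 141, 199, 258 and 188 feeder-free in lines A, C, D and E. The libraries of the conditions did not overlap, and line D went from the lowest value on MEF to the highest without feeders. Its mean was 115.6 ± 10.3 on MEF and 196 ± 48.0 feeder-free (SD, n = 4), a log2 fold change of 0.76 ± 0.18 (SE; edgeR adjusted P-value 0.0566), and of 0.74 with line as a term (adjusted P-value 0.0167).

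*IDI1*, the isomerase that interconverts the isoprenoid building blocks (chromosome 13, 46325275 to 46328402), measured 89.1, 69.3, 59.9 and 88.1 CPM on MEF in the same order of lines and 104.0, 103, 129 and 123 feeder-free. Here too every feeder-free library was above every MEF library, and line D again had the lowest and the highest value. The log2 fold change was 0.58 ± 0.16 (SE; edgeR adjusted P-value 0.0781) and 0.59 with line as a term (adjusted P-value 0.0246). *ACAT2*, the cytosolic thiolase that joins acetyl-CoA units at the entry to the pathway (chromosome 9, 96029255 to 96046102), had 109, 102, 81.8 and 117 CPM on MEF and 123, 153, 194 and 156 feeder-free. Its log2 fold change was 0.61 ± 0.17 (SE; edgeR adjusted P-value 0.0796), or 0.60 with line as a term (adjusted P-value 0.0345). *ACAT2* overlaps *TCP1* in the annotation and the strand setting of the counting is not stated, so that its reads may include those of its neighbour.

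The other 4 mevalonate genes were not called in either fit. *HMGCS1*, the synthase of HMG-CoA and a classical SREBP target, was measured at 558, 442, 395 and 618 CPM on MEF and at 459, 783, 770.0 and 572 feeder-free. Lines C and D were higher without feeders, lines A and E lower, and the log2 fold change of 0.36 had a standard error of 0.21. *MVK*, the mevalonate kinase, had a log2 fold change of -0.29 ± 0.14 (SE) and was lower in lines A, C and E, with line D almost level. *PMVK*, the next kinase, and *MVD*, the decarboxylase, had log2 fold changes of 0.08 and 0.23, each with 3 of 4 lines higher.

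**Figure D2:**
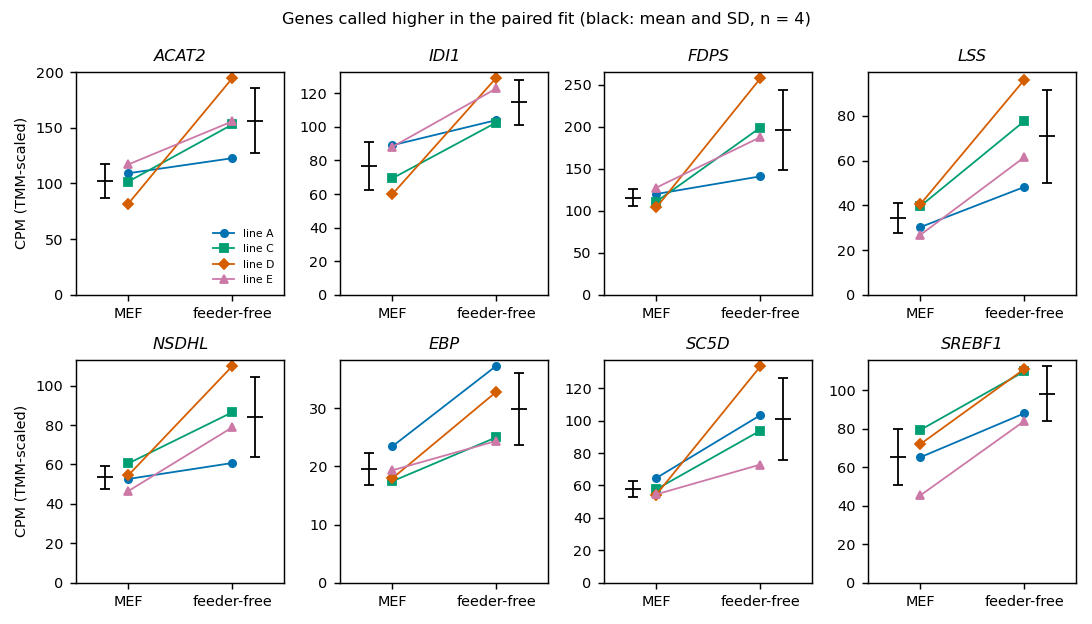
TMM-scaled CPM of the 8 genes called higher with line as a term, on MEF and feeder-free, with a coloured line joining the libraries of each bESC line and black marks giving the mean and SD of 4 libraries. Every coloured line rises, line D has the largest or near-largest feeder-free value in most panels, and line A is the lowest feeder-free library for *ACAT2*, *FDPS*, *LSS* and *NSDHL*.

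From squalene to cholesterol, 4 of 11 genes (36.4%) were called higher with line as a term and 0 lower, beside 5.52% and 4.53% of all tested genes. The median log2 fold change of the 11 genes was 0.32. *LSS*, the cyclase that folds oxidised squalene into lanosterol (chromosome 1, 145889080 to 145919525), showed the largest change of the 34. Its CPM was 30.3, 39.7, 40.5 and 26.8 on MEF and 48.3, 77.7, 96.2 and 61.6 feeder-free in lines A, C, D and E. No feeder-free value fell within the MEF range, and the log2 ratios of lines A, C, D and E were 0.67, 0.97, 1.25 and 1.20. The mean rose from 34.3 ± 6.84 to 70.9 ± 20.7 CPM (SD, n = 4), with a log2 fold change of 1.05 ± 0.23 (SE; edgeR adjusted P-value 0.0505), and of 1.02 with line as a term (adjusted P-value 0.00194).

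*SC5D*, the desaturase of the late sterol ring (chromosome 15, 31876177 to 31888129), had 64.6, 57.7, 54.4 and 54.5 CPM on MEF, a narrow range, and 103, 93.8, 133 and 72.9 feeder-free. All 4 lines moved upward and the ranges did not meet. The log2 fold change was 0.80 ± 0.18 (SE; edgeR adjusted P-value 0.0509) and 0.77 with line as a term (adjusted P-value 0.00938). *NSDHL*, a dehydrogenase of the complex that removes methyl groups from lanosterol (chromosome X, 35133671 to 35159670), had 52.6, 60.5, 54.5 and 46.5 CPM on MEF and 60.7, 86.5, 109.9 and 78.8 feeder-free. Line A without feeders was only just above line C on MEF, so that its separation was narrow. *NSDHL* and *LSS* each overlap a further annotated locus, a pseudogene and a long non-coding RNA, whose reads may be counted with them. Its log2 fold change was 0.65 ± 0.18 (SE; edgeR adjusted P-value 0.0801), and 0.62 with line as a term (adjusted P-value 0.0185).

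*EBP*, the sterol isomerase (chromosome X, 86658038 to 86662086), had CPM values of 23.4, 17.4, 17.9 and 19.3 on MEF and of 37.2, 24.97, 32.8 and 24.3 feeder-free. Line A was the highest in each condition, and the ranges of the conditions did not meet. A log2 fold change of 0.61 ± 0.18 (SE; edgeR adjusted P-value 0.0917) became 0.60 with line as a term (adjusted P-value 0.0172). *DHCR7*, the reductase of the last step from dehydrocholesterol (chromosome 29, 48285095 to 48304736), was at 264, 229, 217 and 184 CPM on MEF and at 268, 322, 382 and 263 feeder-free. Every line was higher without feeders, line A by little, but the feeder-free value of line E lay just under the MEF value of line A. At a log2 fold change of 0.47 ± 0.16 (SE; edgeR adjusted P-value 0.139), and 0.46 with line as a term (adjusted P-value 0.0424), *DHCR7* stayed under the fold change of 1.5 needed for a call.

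The other 6 sterol genes were not called. *SQLE*, the oxygen-using epoxidase of squalene that precedes *LSS*, had 281, 199.9, 181 and 269.7 CPM on MEF and 229, 245, 232 and 179 feeder-free, with overlapping ranges and a log2 fold change of -0.08 ± 0.17 (SE). *FDFT1*, the squalene synthase, was close to level at 0.05 ± 0.13. *CYP51A1*, the demethylase of lanosterol, and *TM7SF2*, a sterol reductase, had log2 fold changes of 0.32 each, with 3 and 4 of 4 lines higher. *MSMO1*, an oxidase of the demethylation complex, spread most between lines: 318, 168, 140 and 409 CPM on MEF against 446, 252, 262 and 259 feeder-free. Lines A, C and D were higher without feeders and line E was lower, and its log2 fold change of 0.24 had a standard error of 0.35. *HSD17B7*, a keto-reductase of the same complex, was at -0.06 ± 0.27 with condition alone and at 0.02 with line as a term.

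Among the regulators, only *SREBF1* was called. *SREBF1* (chromosome 19, 34633068 to 34649776) had CPM values of 65.3, 79.5, 72.1 and 45.5 on MEF and 88.1, 109.9, 111 and 84.1 feeder-free. The lowest feeder-free library, line E, was above the highest MEF library, line C, and line E showed the largest log2 ratio, at 0.89. The log2 fold change was 0.58 ± 0.18 (SE; edgeR adjusted P-value 0.110) and 0.60 with line as a term (adjusted P-value 0.0106). The table does not split isoforms, and *SREBF1* overlaps part of *RAI1*.

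*SREBF2*, the SREBP gene linked to sterol synthesis, was measured at 889, 735, 692 and 778 CPM on MEF and at 590.2, 721, 606 and 621 feeder-free. It was lower in 4 of 4 lines, with line C almost level, and its log2 fold change was -0.29 ± 0.13 (SE; edgeR adjusted P-value 0.245), or -0.28 with line as a term (adjusted P-value 0.123). *SCAP*, the escort of the SREBPs, was likewise lower in 4 of 4 lines by this measure, although line E differed only from 113.6 to 113.3 CPM, and its log2 fold change was -0.25 ± 0.12. *INSIG1*, which retains SCAP when sterol is present, had 101, 65.6, 60.3 and 117 CPM on MEF and 91.9, 104, 110.3 and 94.2 feeder-free, a narrower range without feeders. *INSIG2*, its paralog, was at -0.05 ± 0.24. *STARD4*, a carrier that moves sterol between membranes, had the lowest counts of the 34 genes and varied most among feeder-free libraries, at 2.77, 8.15, 10.2 and 3.58 CPM against 4.56, 4.88, 6.75 and 5.98 on MEF.

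The 3 precursor genes were not called. *ACLY*, which splits citrate to cytosolic acetyl-CoA, was at -0.04 ± 0.16 on the log2 scale. *ACSS2*, which activates acetate, and *ME1*, the malic enzyme that yields NADPH, were higher in 4 of 4 lines, at 0.42 ± 0.20 and 0.22 ± 0.18, with edgeR adjusted P-values of 0.0974 and 0.236 with line as a term.

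Of the 7 fatty acid genes, 0 were called in either direction, beside 5.52% of all tested genes called higher and 4.53% lower with line as a term. Their median log2 fold change was 0.17. *FADS2*, a desaturase of polyunsaturated fatty acids (chromosome 29, 40350542 to 40387559), had 125, 165, 127 and 114 CPM on MEF and 149, 221, 231 and 178 feeder-free. All 4 lines were higher, but the feeder-free library of line A lay below the MEF library of line C. Its log2 fold change of 0.55 ± 0.17 (SE; edgeR adjusted P-value 0.111), or 0.54 with line as a term (adjusted P-value 0.0180), was under the required fold change. *ELOVL6*, the elongase of palmitate (chromosome 6, 15228001 to 15362448), had 136, 138, 134 and 101 CPM on MEF and 174, 181, 214 and 136 feeder-free. Each line was higher, by log2 ratios of 0.36, 0.39, 0.67 and 0.42, and the log2 fold change was 0.47 ± 0.16 (SE; edgeR adjusted P-value 0.139), or 0.46 with line as a term (adjusted P-value 0.0197).

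*FASN*, the synthase that builds palmitate, was measured at 1810 to 2269 CPM on MEF and at 1361 to 2072 feeder-free. It was lower in 4 of 4 lines, most in lines A and E, with a log2 fold change of -0.28 ± 0.17 (SE) and an edgeR adjusted P-value of 0.0925 with line as a term. *ACACA*, the carboxylase that supplies malonyl-CoA to FASN, was higher in 4 of 4 lines at 0.26 ± 0.30. *SCD*, the desaturase of stearate, and *ELOVL5*, an elongase of polyunsaturated fatty acids, were at -0.04 ± 0.20 and -0.14 ± 0.17. *FADS1*, the neighbour of *FADS2* with an annotated overlap, was at 0.17 ± 0.17.

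Across the 34 genes the lines did not respond to the same extent. Without feeders, 31 of the genes were higher in line D (median log2 ratio 0.60) and 29 in line C (0.41), but 20 in line A (0.11) and 16 in line E (-0.04). Over all tested genes the median log2 ratio of a line lay between -0.0029 and 0.0087. The feeder-free library of line D held the highest of the 4 feeder-free values in 21 of the 34 genes and that of line A the lowest in 20. Within a condition the median coefficient of variation of the 34 genes was 16.6% on MEF and 19.2% feeder-free. Of the 7 enzymes that use molecular oxygen (*SQLE*, *CYP51A1*, *MSMO1*, *SC5D*, *SCD*, *FADS1* and *FADS2*), 1 (14.3%) was called higher with line as a term, *SC5D*, beside 5.52% of all tested genes. The median log2 ratio of the 7 was 0.25 in line A, 0.43 in line C, 0.86 in line D and -0.55 in line E.

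**Figure D3:**
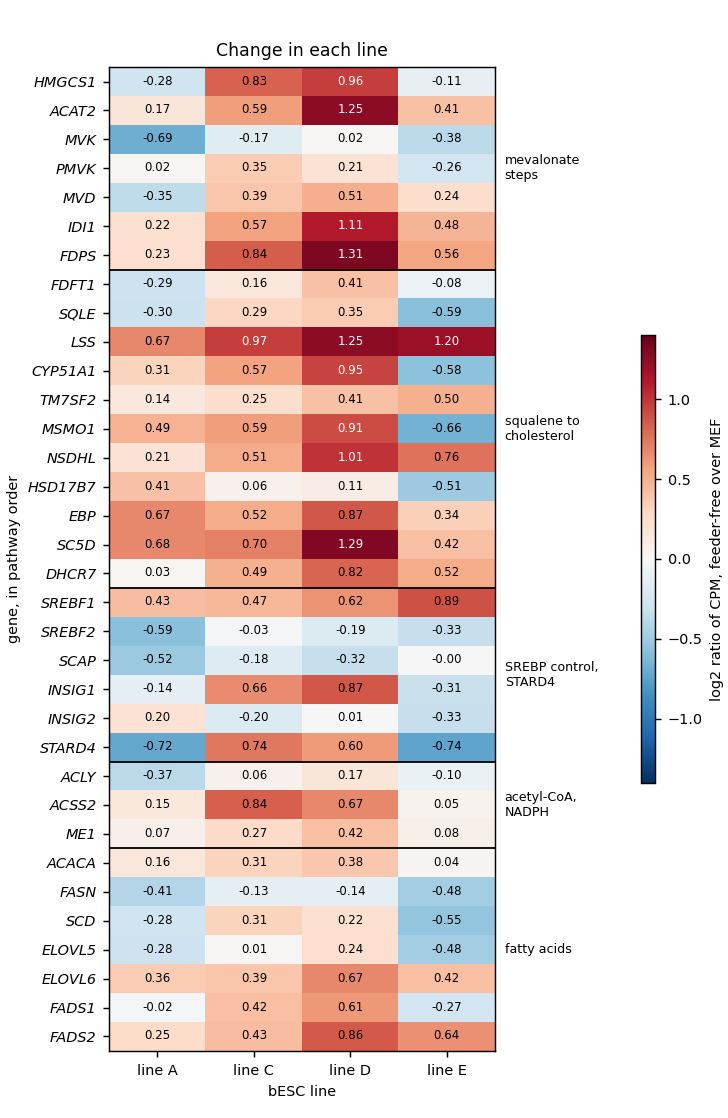
Log2 ratio of CPM, feeder-free over MEF, for each of the 34 genes (rows, in pathway order) in each bESC line (columns), with the value in each cell; red is higher and blue lower without feeders. Columns C and D are red for most genes, columns A and E are mixed, and *LSS*, *SC5D* and *EBP* are red in all 4.

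In 15 of the 34 genes (44.1%) all 4 lines were higher without feeders, against 20.2% of all tested genes, and in 3 (8.82%) all 4 were lower, against 20.7%. A further 9 genes (26.5%) stood higher in lines C and D but lower in A and E, a pattern of 2.77% of all tested genes that was picked out after the values had been seen. These were *HMGCS1*, *FDFT1*, *SQLE*, *INSIG1*, *STARD4*, *ACLY*, *SCD*, *ELOVL5* and *FADS1*. The summed CPM of 15 fibroblast markers moved the same way between the lines: on MEF it was 443, 571, 516 and 501 in lines A, C, D and E, and feeder-free 261, 914, 1303 and 397. *COL1A1* was the largest contributor to that sum in each library, at 292 to 383 CPM on MEF and 115, 597, 1033 and 283 feeder-free. Of the 14 fibroblast markers tested, 2 were called higher with line as a term (*COL3A1* and *POSTN*) and 2 lower (*COL1A2* and *PRRX1*). Over all tested genes, 5.52% were called higher and 4.53% lower in that fit. *COL3A1* was higher in 4 of 4 lines, at 0.769 CPM on MEF and 4.69 feeder-free on average. *LUM* and *FBN1* were highest without feeders in lines C and D, at 72.7 and 58.6 CPM for *LUM* and 67.9 and 67.1 CPM for *FBN1*. *TWIST2* had 0 counts in all 4 feeder-free libraries, and *COL1A2* and *PRRX1* were under 1 CPM in each of them.

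The calls rested unevenly on the lines. With line as a term and a line left out, edgeR's quasi-likelihood test called 9 of the 34 genes higher without line A (*EBP* lost, *DHCR7* and *FADS2* gained), 8 without line E (*ACAT2* and *SREBF1* lost, *CYP51A1* and *MSMO1* gained), 3 without line C (*LSS*, *SC5D* and *SREBF1*) and 2 without line D (*LSS* and *SC5D*). The share of all tested genes called higher was then 5.82%, 4.21%, 3.54% and 2.37%. *LSS* and *SC5D* were called in 9 of 9 alternatives of the paired fit, *SC5D* by a narrow margin in 2 of them. Its edgeR adjusted P-value was 0.0420 without line C and 0.0482 without line D, against 0.0134 and 0.00902 for *LSS*.

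The other lipid genes examined were set beside the 34 as counts, to be read against the 5.52% of all tested genes called higher and 4.53% called lower with line as a term. Fold changes of the genes called here are those with line as a term. Of 11 other sterol-control genes (SREBP proteases, sterol-linked ubiquitin ligases and liver X receptors), 0 were called with line as a term, and their median log2 fold change was 0.06. Of 14 tested genes for sterol uptake, storage and efflux, 0 were called higher and 2 (14.3%) lower, the lipoprotein receptor *VLDLR* at -0.90 ± 0.21 and the sterol carrier *GRAMD1C* at -0.78 ± 0.18 (SE; edgeR adjusted P-values with line as a term 0.0204 and 0.0221), and the median was -0.15. In the isoprenoid branch, which leaves the pathway at farnesyl diphosphate, 1 of 13 (7.69%) was called, *GGPS1*, the geranylgeranyl diphosphate synthase, higher at 0.60 ± 0.14 (SE; edgeR adjusted P-value 0.0244). With condition alone, edgeR's quasi-likelihood test called 0 genes of these lists.

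Among 20 tested genes of fatty acid synthesis, elongation and activation beyond the 34, 2 (10%) were called higher and 1 (5%) lower with line as a term. *ACACB*, the mitochondria-associated counterpart of *ACACA*, had 35.8, 20.0, 50.9 and 35.9 CPM on MEF and 25.7, 6.63, 13.9 and 15.6 feeder-free. It was lower in 4 of 4 lines, where *ACACA* was higher in 4 of 4, and its log2 fold change with line as a term was -1.29 ± 0.21 (SE; edgeR adjusted P-value 0.00525). The elongase *ELOVL7* and the acyl-CoA synthetase *ACSL1* were higher at 0.70 ± 0.17 and 1.74 ± 0.40 with line as a term, against 0.59 ± 0.40 and 1.25 ± 0.88 with condition alone (SE), and *ACSL1* was low, at 1.28 CPM on MEF and 3.04 feeder-free. Among 16 tested glycerolipid genes, *GPAT3*, *AGPAT2* and *ABHD5* (18.8%) were called higher and the phosphatidate phosphatase *LPIN1* (6.25%) lower. *GPAT3*, an acyltransferase at the entry to triglyceride synthesis, rose from 8.58 ± 2.91 to 20.0 ± 4.37 CPM (SD, n = 4), and *LPIN1* fell from 103.8 ± 7.12 to 62.5 ± 14.0 CPM. Of 25 tested genes of fatty acid oxidation, 0 were called higher and 1 (4%) lower, the enoyl-CoA isomerase *ECI1*, at a log2 fold change of -0.73 ± 0.13 (SE) with line as a term.

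**Figure D4:**
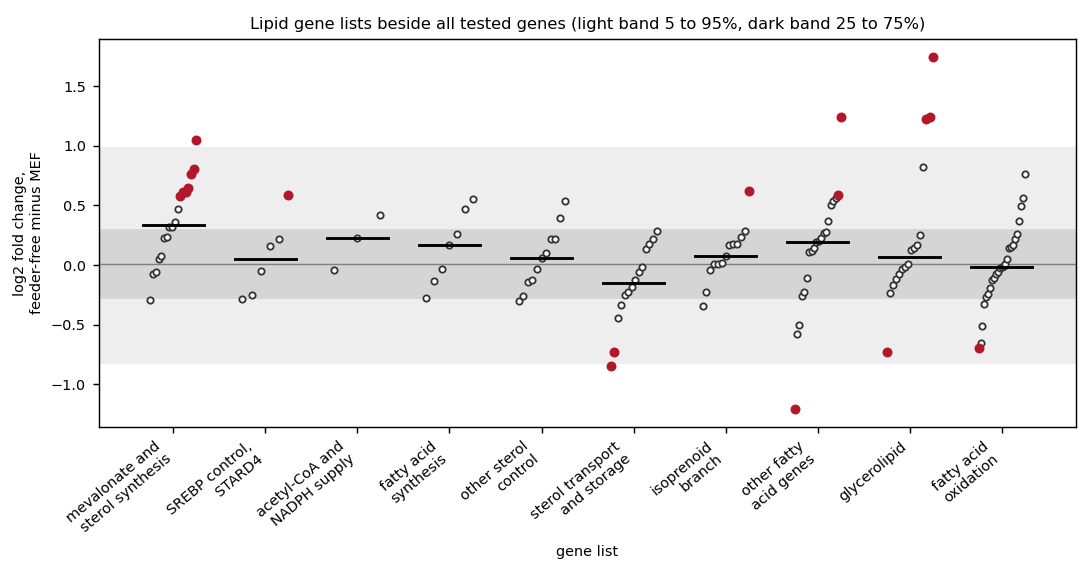
Log2 fold change (feeder-free minus MEF, condition alone) of each tested gene in the lipid lists, with red points called with line as a term, a black bar at each list's median, and grey bands for all 15744 tested genes (light from 5 to 95%, dark from 25 to 75%). Red points in the mevalonate and sterol list are all above 0, while the sterol transport list has red points below 0 only.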

How the data were processed

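Total RNA of 8 bESC libraries (4 lines on MEF and feeder-free, 5% O2) was sequenced. The authors deposited raw counts per gene. Per the methods of the study, trimmed reads were placed on ARS-UCD2.0 by STAR, Picard removed optical duplicates, samtools removed poorly mapped alignments, and featureCounts gave the table; the submitters' processing notes also name Trimmomatic, Subread 1.6.2 and edgeR. Reads of a MEF sample were removed from the counts of cells on MEF only, and the effect of that step on the comparison was not tested. Strand was not stated. The methods name RNeasy and the labels Trizol for the RNA.

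No change was made to the deposited counts. There were 3 genes of 32640 without values, and 0 columns went unused. Within conditions no pair of libraries was alike (smallest chi-square per degree of freedom 43.7). In R 4.3.3, edgeR 4.0.16 (filterByExpr, TMM, glmQLFit, glmQLFTest) was fitted to 15744 genes with condition as the only term and Benjamini-Hochberg adjustment over all of them; the scripts were tested on simulated data. Standard errors were derived from the log2 fold change and its F statistic. A prior count of 2 was used only for the log2 CPM values correlated between libraries, not for the log2 ratios of a line or the fold changes. Line pairs the libraries, since the same lines were grown in both conditions: deviations from the condition mean correlated at 0.421 to 0.664 within lines and -0.523 to 0.249 between lines. A fit with line as a term was therefore made too. Over only the cholesterol and fatty acid genes described here, these correlations were 0.294 to 0.667 within lines and -0.607 to 0.443 between lines. There the line E pair (0.294) lay within the range between lines. The line C pair (0.457) was little above line D on MEF with feeder-free line C (0.443). The pairs of lines A and D were at 0.667 and 0.655. DESeq2 1.42.0, limma 3.58.1 (voom), other scaling, filters and fold thresholds, thinning of the deepest library and libraries or lines left out were alternatives. With condition alone, P-values measure the spread between the 4 lines within a condition. With line as a term, they measure the spread of the change between the 4 lines. As there was 1 culture per line and condition, both include variation between cultures and libraries.

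Members, lists and tests were chosen with earlier results of these data known. Genes called in either fit, or with an unadjusted P-value under 0.05, were given in full, the others by fold change. Gene positions and overlaps are from RefSeq on ARS-UCD2.0, to which all 34 matched; 11 of them overlap another gene. Outside the 34, genes of the other lists called in either fit were named, at most 10 by unadjusted P-value; an eleventh, *ACSL1*, was added after its values were seen, to complete a count. Promoter and protein sequences, libraries from high oxygen and the MEF-only sample were not analysed here.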

Additional observations from a re-analysis of the deposited data

Results flagged for a closer look

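Of 68 sets of 4 libraries (34 genes in each condition), 3 held a library set far from the other 3, where chance gives about 1 in 20 sets, or 3.4. *HSD17B7* was at 74.5 CPM in line E on MEF, with the other MEF libraries at 32.3 to 37.1. *ELOVL6* was at 101 CPM in line E on MEF, below the others at 134 to 138. *MSMO1* was at 446 CPM in line A feeder-free, above the others at 252 to 262.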

How the results depend on the processing

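With condition alone, 0 of the 34 genes were called higher by edgeR's quasi-likelihood test, and 3 with genes kept at 1 CPM in 4 libraries (*FDPS*, *LSS*, *SC5D*), 8 with DESeq2, 5 with the likelihood ratio test, 8 with line as replicate block, and 0 to 4 with a library left out (4 without feeder-free line A, 0 otherwise). The calls over all genes, 272, became 405 of 13162 tested with genes kept at 1 CPM in 4 libraries, 174 without scaling and 170 without a filter. They became 1211 with DESeq2, 837 with the likelihood ratio test, 1582 with the replicate block and 118 at a fold change of at least 2. With a library left out they were 0 to 490 (490 without feeder-free line A). Under the replicate block, 8 genes became 2 to 9 with a line left out, not the same genes each time, and the 1582 became 742 to 1651. The 8 stayed the same genes with DESeq2, RLE factors, voom and a thinned line D, and 9 were called without scaling, *FADS2* being added; voom, no scaling and thinning under the block were chosen after seeing the data. No gene of the 34 was called lower in any alternative. Log2 fold changes near 0 changed sign: *SCD* (0.0069 without scaling), *HSD17B7* (0.0141 with voom, 0.0166 with the block) and *STARD4* (-0.0163 with the block). With a library left out, ranges spanning 0 were -0.0072 to 0.18 for *PMVK*, -0.18 to 0.0261 for *SQLE*, -0.28 to 0.0639 for *INSIG2*, -0.0229 to 0.105 for *FDFT1*, -0.19 to 0.30 for *HSD17B7*, -0.0044 to 0.55 for *MSMO1*, -0.14 to 0.0751 for *ACLY*, -0.21 to 0.11 for *SCD* and -0.20 to 0.40 for *STARD4*. The cause of these shifts was not tested. The lowest count of the 34 genes in a library was 138.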
